A study of Sus scrofa with 15 samples.

Results

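Expression of germline and piRNA pathway genes was followed in pig embryos made by somatic cell nuclear transfer (SCNT) and in the fibroblasts from which such embryos are cloned. The list held 10 genes, chosen by name, with earlier results of these data known: DAZL, DDX4, PIWIL1, PIWIL2, TDRD1, TDRD9, MAEL, SYCP3, MOV10L1 and ASZ1. Of these 10 genes, 9 had an entry among the 43294 features of the expression table, and TDRD9, which the reference annotation places on an unplaced scaffold, was not analysed here. RNA-seq libraries fell into 5 groups of 3. PFF were primary porcine fetal fibroblasts at passage 2 to 5, the donor cell type. SCNT4c and SCNT8c were untreated SCNT embryos at the 4-cell and 8-cell stage. SCNT4c-KG were 4-cell embryos that received KDM4A mRNA (1000 ng/µl) 5 h after activation and GSK126 (0.1 µM) for 48 h. KDM4A is a demethylase of histone H3 lysine 9, and GSK126 inhibits EZH2, the enzyme that methylates histone H3 lysine 27. SCNT4c-TDG were 4-cell embryos whose donor PFF carried a doxycycline-inducible TDG vector, with doxycycline (500 ng/ml) from 40 to 72 h. TDG is a DNA glycosylase that removes oxidized 5-methylcytosine from DNA. Those donor fibroblasts had been nucleofected and selected with puromycin, so this group differed from SCNT4c in the donor cells as well as in doxycycline, and no library with doxycycline alone was analysed here. Every SCNT library was a pool of 30 embryos that began as an enucleated oocyte, so RNA laid down by the oocyte was part of what was measured. The labels do not say that the pools or cultures were prepared independently, so p-values measure the spread between these libraries, which may be technical. The table's SCNT4c columns could not be tied to single numbered samples and are called libraries a, b and c.

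piRNAs are small RNAs of the germline that guide PIWI proteins to transposon transcripts, which are then cut or silenced through DNA methylation of the transposon. PIWIL1 and PIWIL2 are PIWI proteins, MOV10L1 is the RNA helicase that passes piRNA precursors to them, ASZ1 sits at the mitochondrial surface where precursors are processed, TDRD1 is a Tudor-domain scaffold of germ granules, and MAEL acts in piRNA biogenesis and transposon silencing. DAZL and DDX4 are RNA-binding proteins that mark germ cells, and SYCP3 is a structural protein of the synaptonemal complex, which joins homologous chromosomes in meiosis. In somatic cells many genes of this kind are held off by DNA methylation at CpG-containing promoters and by a Polycomb complex, PRC1.6, that recognizes short DNA motifs through E2F6 and MGA/MAX. DNA methylation itself was not measured in these libraries.

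The DNA in front of 8 of the genes differed widely in the number of CpG dinucleotides, the substrate of DNA methylation. In the 250 bases before the RefSeq gene start (Sscrofa11.1), MOV10L1 had 33 CpGs, ASZ1 had 22, PIWIL1 had 20 and DDX4 had 13. PIWIL2 had 5, SYCP3 had 2, TDRD1 had 1 and DAZL had 0. Over 19531 protein-coding genes on placed chromosomes the median was 12 (quartiles 4 and 22), and 91.3% of windows had fewer CpGs than the MOV10L1 window against 9.80% for SYCP3. MOV10L1, ASZ1 and PIWIL1 therefore lay in the upper part of this distribution, and DAZL, TDRD1 and SYCP3 near its lower end. Whether the annotated starts are the ones used in these embryos was not tested. The sequences are shown for 3 genes called in SCNT4c-KG (below), DAZL, SYCP3 and PIWIL1, and for MOV10L1, the most CpG-rich, so that the range of CpG content can be seen. Capitals mark CpG dinucleotides, each sequence reads 5′ to 3′ on the gene's own strand, and the gene starts at the next base. The windows are chr13:3783849-3784098 (minus strand) for DAZL, chr5:82492494-82492743 (plus strand) for SYCP3, chr14:24760057-24760306 (minus strand) for PIWIL1 and chr5:567430-567679 (minus strand) for MOV10L1.
DAZL: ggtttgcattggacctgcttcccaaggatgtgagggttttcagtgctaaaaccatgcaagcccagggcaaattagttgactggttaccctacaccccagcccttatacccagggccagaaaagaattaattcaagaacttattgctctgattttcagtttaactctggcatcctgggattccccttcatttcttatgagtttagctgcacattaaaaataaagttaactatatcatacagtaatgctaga
SYCP3: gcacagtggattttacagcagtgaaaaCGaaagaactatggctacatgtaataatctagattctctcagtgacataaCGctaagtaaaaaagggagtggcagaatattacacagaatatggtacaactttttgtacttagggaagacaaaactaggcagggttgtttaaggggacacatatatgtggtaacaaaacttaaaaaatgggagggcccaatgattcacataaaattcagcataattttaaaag
PIWIL1: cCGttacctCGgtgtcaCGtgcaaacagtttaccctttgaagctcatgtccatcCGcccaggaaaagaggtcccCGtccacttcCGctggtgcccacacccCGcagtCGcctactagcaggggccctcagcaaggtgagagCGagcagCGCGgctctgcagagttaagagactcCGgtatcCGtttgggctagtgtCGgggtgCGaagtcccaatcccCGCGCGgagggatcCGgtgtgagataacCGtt
MOV10L1: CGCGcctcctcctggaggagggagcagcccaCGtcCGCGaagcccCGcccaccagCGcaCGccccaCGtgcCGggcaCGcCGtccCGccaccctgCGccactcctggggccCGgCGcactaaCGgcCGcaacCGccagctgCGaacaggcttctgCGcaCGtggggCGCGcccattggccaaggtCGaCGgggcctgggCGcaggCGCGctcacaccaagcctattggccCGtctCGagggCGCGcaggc

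Both motifs read by PRC1.6 were searched on both strands of these windows, TCCCGC for an E2F6-type site and CACGTG, an E-box, for MGA/MAX. TCCCGC occurred 2 times before ASZ1 and 1 time before MOV10L1, and was held by 25.5% of all 19531 windows. CACGTG occurred 2 times before MOV10L1 and 1 time before PIWIL1, and was held by 6.39% of all windows. The remaining 5 of the 8 genes held neither motif in this window. A match describes letters and not an occupied site.

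**Figure D1:**
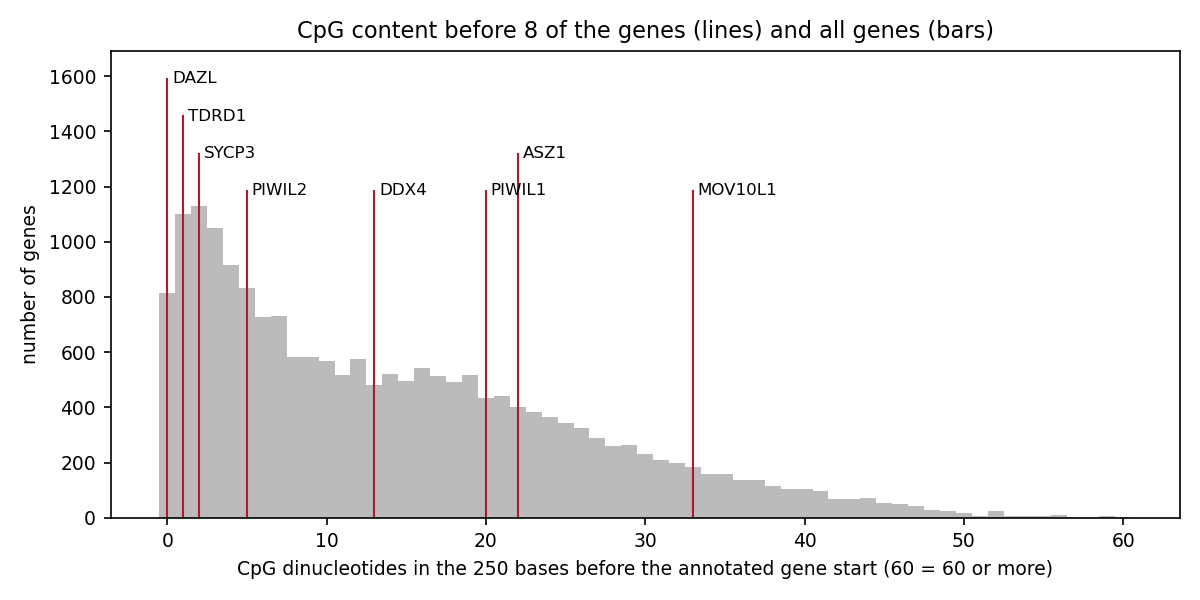
The number of CpG dinucleotides in the 250 bases before the annotated gene start (horizontal axis) is plotted against the number of genes (vertical axis, bars), with red lines at 8 of the genes. The lines run from 0 CpGs for DAZL to 33 for MOV10L1, on both sides of the median of 12.

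The genes stand at chr13:3762896-3783848 (DAZL), chr16:34879701-34983701 (DDX4), chr14:24729346-24760056 (PIWIL1), chr14:6560402-6632524 (PIWIL2), chr14:124526013-124575166 (TDRD1), chr4:83990266-84040465 (MAEL), chr5:82492744-82501068 (SYCP3), chr5:509868-567429 (MOV10L1) and chr18:28859140-28910927 (ASZ1) of Sscrofa11.1. SYCP3 shares exonic bases with CHPT1, a lipid-synthesis gene on the opposite strand, and the strand setting of the counting is not given in the sources used here, so reads of SYCP3 and CHPT1 could not be told apart where they overlap. CHPT1 itself was at 230.2 ± 34.6 in SCNT4c and 337.7 ± 72.9 in SCNT4c-KG (SD, n = 3), under the SYCP3 values below. In SCNT4c-TDG CHPT1 was at 790.2, 405.8 and 669.5 (log2 fold change 1.39 ± 0.53 against SCNT4c, adjusted p = 0.0550), the direction of SYCP3 there, and in PFF it was at 1383 ± 82.1, far above SYCP3. MAEL has LOC110260301 inside its span without shared exons. No other RefSeq gene lies on the DDX4 span above. The locus that the expression table gives for DDX4, however, overlapped 10 other named genes and 5 assembled transcripts. This makes the low DDX4 values uncertain.

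Recovered reads per library were 22224949 to 22868038 in PFF, 20460653 to 22530486 in SCNT4c, 12354649 to 15390472 in SCNT4c-KG, 17757929 to 19564459 in SCNT4c-TDG and 18083559 to 19549670 in SCNT8c. The targeted genes followed their labels: TDG signal was 49857 to 59944 in SCNT4c-TDG against 939.4 to 2541 in SCNT4c, and KDM4A signal was 1429 to 1476 in SCNT4c-KG against 133.7 to 313.1 in SCNT4c. Each was also higher in the other treated group, with KDM4A at 554.6 to 918.2 in SCNT4c-TDG (adjusted p = 0.00375) and TDG at 3886 to 4738 in SCNT4c-KG (adjusted p = 0.00195). SCNT8c replicate 3 stood apart from replicates 1 and 2 (r = 0.880 and 0.851 of log2 values across genes, which are not independent, against 0.914 between those), and results that rest on it are given with and without it. The fibroblast label of PFF fitted its markers, since COL1A1, COL1A2 and DCN summed to 2796371 to 3124571 there and to 569.5 to 3765 in the embryos. Of the oocyte's defining markers, GDF9 and BMP15 were listed at 0 in all 15 libraries and ZAR1 did not exceed 13.1, while other oocyte transcripts were abundant. SDHA, which every cell uses, was also listed at 0 throughout, so a 0 in the table need not mean that no RNA was present.

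In the fibroblasts the 9 genes took almost no reads, and in untreated 4-cell SCNT embryos most of them were plainly detected. Together the 9 genes took 2.19e-05% to 3.60e-05% of the reads in PFF and 0.0619% to 0.0869% in SCNT4c. SCNT4c against PFF asks how far these genes differ between the donor cell type and the embryo made from such cells. Values are normalized read counts, the deposited signal, in which each library's counts had been divided by 1 size factor, and total signal still differed between groups.

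MAEL stood highest per kilobase of exon in SCNT4c, at a level of 2851 (range 2065 to 3555), above every library of the other genes on this scale. SYCP3 (1026, range 769.6 to 1178), DAZL (857.5, range 677.1 to 1035) and PIWIL1 (851.8, range 750.3 to 990.2) came next on this per-kilobase scale, and their ranges overlapped. TDRD1 (176.1, range 142.3 to 207.0), ASZ1 (54.4), PIWIL2 (22.1) and DDX4 (4.81) followed, and MOV10L1 was last at 0.194. PIWIL2 varied most among the well-detected genes, from 6.71 to 33.5 per kilobase, lying below the range of ASZ1 (42.8 to 71.0) and overlapping that of DDX4 (1.94 to 9.32).

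DAZL, a germ cell RNA-binding protein, took 0 reads in each of the PFF libraries, and its signal was 2639.9, 4036 and 3354 in SCNT4c libraries a, b and c. PIWIL1 was likewise at 0 in PFF and at 2634, 2860.1 and 3475 in SCNT4c. TDRD1 was at 0 in PFF and at 961.5, 1209 and 1399 in SCNT4c. All 3 genes thus had reads in every SCNT4c library and none in PFF, and against a floor of 3 counts per PFF library they were at least 907-fold (DAZL), 811-fold (PIWIL1) and 323-fold (TDRD1) higher. MAEL was at 0, 2.55 and 2.38 in PFF and at 3362, 5788 and 4776 in SCNT4c, a ratio of 2809 (95% exact interval 1097 to 10312, counting error only, from 4 reads in PFF). SYCP3 was at 6.11, 5.09 and 2.38 in PFF and at 1282, 1339 and 874.3 in SCNT4c, a ratio of 259 (144 to 518). It was the only one of the 9 genes with reads in every PFF library. PIWIL2 was at 0, 0 and 2.38 in PFF and at 37.9, 188.8 and 147.8 in SCNT4c, a ratio of 149 (41.1 to 1236), and ASZ1 was at 0, 2.55 and 0 in PFF and at 76.5, 88.3 and 127.0 in SCNT4c, a ratio of 119 (32.6 to 983). For each of these 4 genes the lowest SCNT4c library lay above the highest PFF library.

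DDX4 and MOV10L1 were near the detection limit and had too low a mean to be tested (minimum mean 10). DDX4 was at 0 in PFF and at 7.10, 34.1 and 11.6 in SCNT4c, at least 4.77-fold higher against the floor. MOV10L1 was at 0 in PFF and at 2.37, 0 and 0 in SCNT4c, so no fold is given. All 7 tested genes were called higher in SCNT4c (limma, Benjamini-Hochberg adjusted p from 4.98e-07 to 0.000509 over 19287 features, fold change above 2). The 2 states differed broadly, with 78.2% of all features called (39.7% higher), and 84.5% without overlap between the groups (42.4% higher and 42.1% lower), so that a call by itself was common. The median log2 fold change was 10.2 over the 7 tested genes and 0.07 over all features. Genes at or near 0 in PFF reached the minimum mean only through SCNT4c and so had to differ, and this count and median are descriptions of the genes that passed. With 3 libraries per group an exact two-sided permutation test of a single gene cannot go below p = 0.1. In such bulk samples fewer cells of a type and less RNA per cell cannot be told apart.

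**Figure D2:**
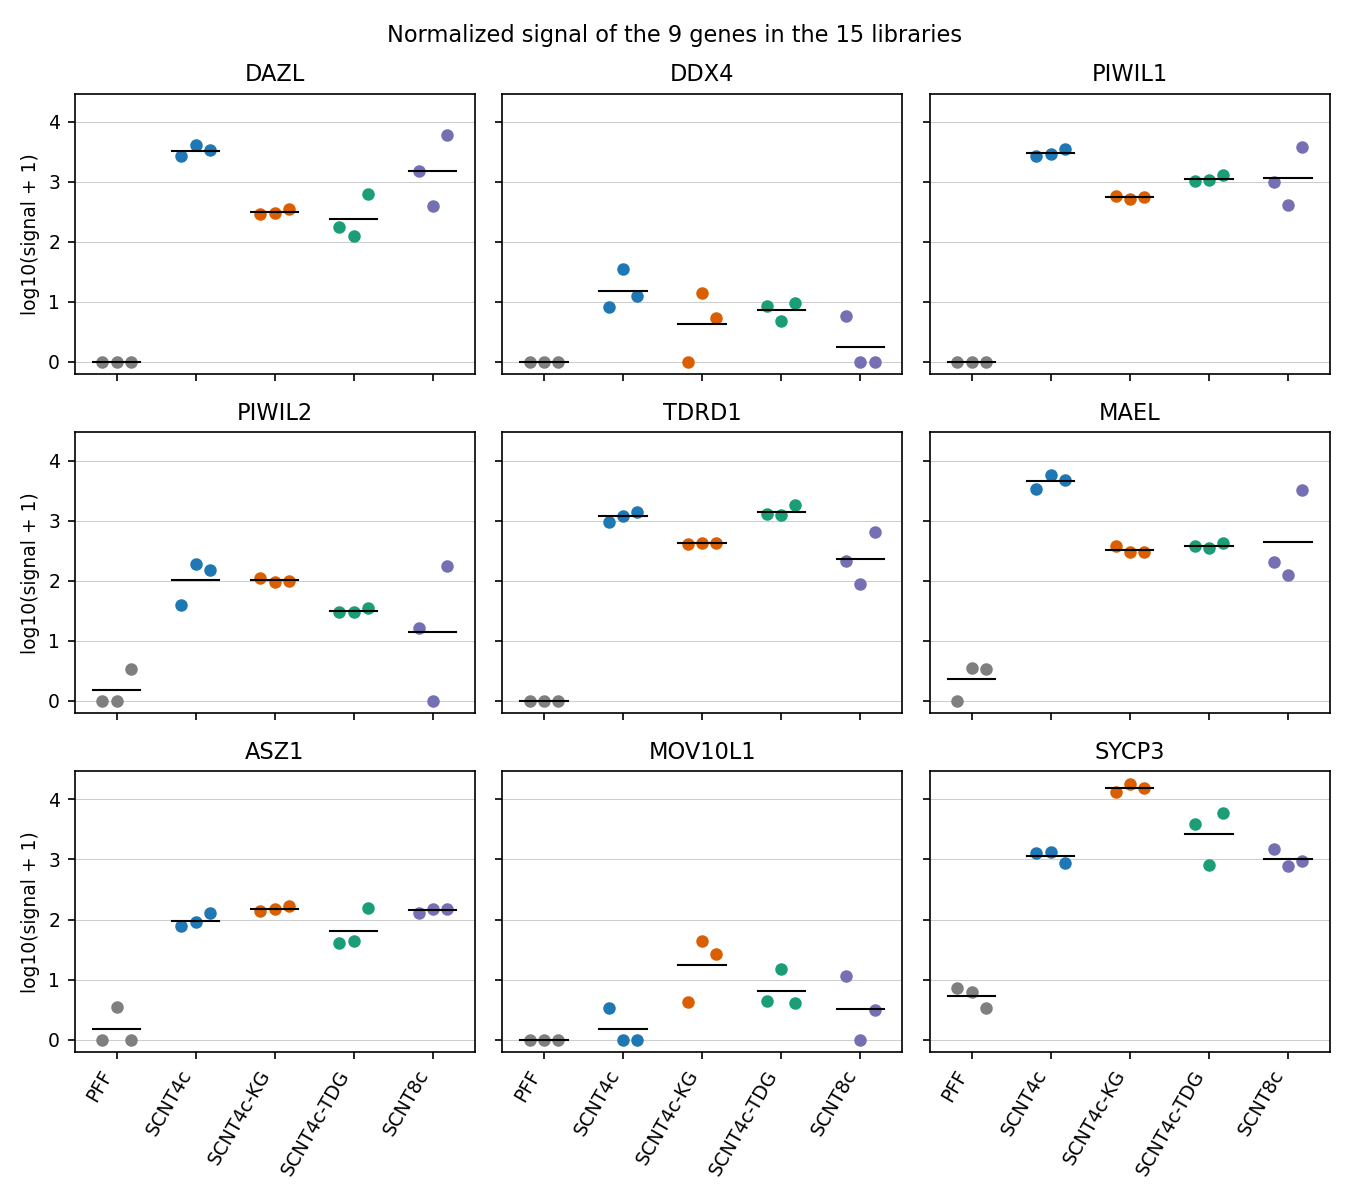
Each panel plots the normalized signal of 1 gene as log10(signal + 1) on the vertical axis for the 5 groups on the horizontal axis, with 1 point per library and a line at the mean of the plotted values. PFF points lie at or near 0 for all 9 genes, SYCP3 is highest in SCNT4c-KG (13254 to 17982), and the SCNT8c points of DAZL, PIWIL1, PIWIL2, TDRD1 and MAEL are spread by replicate 3.

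SCNT4c against PFF also gives the wider germline set, in which genes at 0 in PFF again passed the filter only through SCNT4c, so that counts and medians are descriptions, to be read beside 39.7% of all features higher and 38.5% lower. Of 22 other piRNA pathway genes, 14 were tested, of which 9 were called higher and 5 lower in SCNT4c (median log2 fold change 6.23). The largest log2 fold changes were those of FKBP6, a co-chaperone of PIWI loading, at 28353 ± 2370.0, HENMT1, the methyltransferase that protects piRNA 3′ ends, at 12837 ± 2036, and PIWIL3 at 1961 ± 83.0, each listed at 0 in PFF. GTSF1, a PIWI cofactor, was at 3438 ± 270.4 against 2.49 ± 2.55 (SD, n = 3). Of the other meiosis genes 16 of 38 were tested, with 7 called higher and 6 lower, led by the cohesin subunit SMC1B at 32209 ± 6290.0 against 3.67 ± 2.37. Of 27 other germ cell identity genes, 15 were tested, with 12 called higher and 1 lower, among them BRDT at 15138 ± 887.3 and DPPA3 at 4897 ± 1167, both listed at 0 in PFF. Of 17 known repressors of germline genes, 12 were tested, with 2 called higher and 5 lower. E2F6 fell from 1052 ± 10.2 in PFF to 86.7 ± 27.3 (log2 fold change -3.63 ± 0.25 SE, adjusted p = 2.72e-05) and PCGF6 from 268.9 ± 52.0 to 13.7 ± 4.80 (log2 fold change -4.23 ± 0.32 SE, adjusted p = 4.33e-05), and both encode PRC1.6 subunits. RNF2, a PRC1.6 ligase chosen after its values were seen, rose instead, from 1047 ± 67.1 to 8483 ± 3053 (2.96 ± 0.25, adjusted p = 7.16e-05). RING1, a Polycomb E3 ligase, was at 105.2 ± 22.3 in PFF and listed at 0 in all SCNT4c libraries.

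After KDM4A mRNA and GSK126, 4 of the genes were lower and SYCP3 was much higher than in untreated 4-cell embryos. MAEL, DAZL, PIWIL1 and TDRD1 fell by 14.0-fold, 10.7-fold, 5.42-fold and 2.83-fold, whereas SYCP3 rose 13.6-fold. PIWIL2 and ASZ1 passed no threshold. This comparison asks how the set differs after a treatment aimed at repressive histone methylation, which was not measured in these libraries. SCNT4c were untreated, and no mock-injected library was analysed here.

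MAEL was at 375.7, 297.0 and 300.7 in SCNT4c-KG replicates 1 to 3, all under the lowest SCNT4c value of 3362 (log2 fold change -3.81 ± 0.82 SE, adjusted p = 0.00216). DAZL was at 289.1, 294.4 and 343.4, against 2639.9 or more in SCNT4c (-3.41 ± 0.74, adjusted p = 0.00225). PIWIL1 was at 571.7, 512.7 and 557.1, against 2634 or more (-2.44 ± 0.55, adjusted p = 0.00301). In these 3 genes the treated libraries were close to each other and far from the untreated ones. TDRD1 was at 400.2, 421.3 and 423.2 against 961.5 or more in SCNT4c (-1.5 ± 0.52, adjusted p = 0.0347). Its groups did not overlap either, but its call was lost when any one of the 6 libraries was left out: adjusted p was 0.0538, 0.0851 and 0.0992 without SCNT4c library a, b or c, and 0.0791, 0.0771 and 0.0745 without SCNT4c-KG replicate 1, 2 or 3. Over all its alternatives the adjusted p of TDRD1 ran from 0.000927 to 0.0992.

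SYCP3, the synaptonemal complex protein, was at 13254, 17982 and 15754 in SCNT4c-KG and at 1282, 1339 and 874.3 in SCNT4c (log2 fold change 3.76 ± 0.54 SE, adjusted p = 8.84e-05). Every treated library exceeded every untreated one, and in SCNT4c-KG its level per kilobase of exon was 13788 ± 2082 (SD, n = 3). CHPT1, which overlaps it, gave a log2 fold change of 0.54 (adjusted p = 0.438). ASZ1 was at 137.2, 148.5 and 168.1 against 76.5, 88.3 and 127.0 (log2 fold change 0.66 ± 0.54, adjusted p = 0.349), so its groups did not overlap while the difference missed the threshold. PIWIL2 was at 111.1, 92.6 and 95.5, inside the SCNT4c range of 37.9 to 188.8 (-0.04 ± 1.29, adjusted p = 0.985).

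MOV10L1, the piRNA helicase, had few reads in every group and was not tested. It was at 3.27, 43.1 and 25.6 in SCNT4c-KG and at 2.37, 0 and 0 in SCNT4c, so the groups did not overlap, although the lowest treated library differed from the highest untreated one by less than 1 unit of signal. An unnamed assembled transcript at the MOV10L1 locus was at 76.8, 45.7 and 29.9 in SCNT4c-KG and at 9.46, 0 and 0.830 in SCNT4c. With both summed the log2 fold change was 4.70 (adjusted p = 0.00216), with SCNT4c under the minimum mean of 10, so that the sum passed the filter through other groups and its call is a description. The gene entry by itself, with all features above 0 tested, gave 3.51 (adjusted p = 0.0565), and in a fit of both groups alone it reached the minimum mean only through SCNT4c-KG, so its call there is no support. DDX4 was at 0, 12.7 and 4.28, overlapping SCNT4c.

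Of the 7 tested genes, 4 were called lower and 1 higher, beside 37.2% of all 18942 features tested (19.6% lower and 17.6% higher). Ranges did not overlap for 4 lower and 2 higher of the 7, beside 29.6% and 24.3% of all features (53.9% in either direction). The median log2 fold change was -1.5 over the 7 genes and -0.30 over all features. The calls for MAEL, DAZL, PIWIL1 and SYCP3 held in every alternative run.

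SCNT4c-TDG embryos had less DAZL and MAEL than untreated 4-cell embryos. DAZL fell by 13.9-fold and MAEL fell by 11.9-fold relative to SCNT4c. No tested gene of the set was called higher, and TDRD1, which was lower in SCNT4c-KG, was not called here. SCNT4c-TDG and SCNT4c-KG are compared with the same 3 SCNT4c libraries, so these comparisons are not independent.

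DAZL was at 173.9, 124.3 and 609.8 in SCNT4c-TDG replicates 1 to 3, against 2639.9 or more in SCNT4c (log2 fold change -3.8 ± 0.74 SE, adjusted p = 0.00115). MAEL was at 382.2, 343.7 and 421.6, against 3362 or more (-3.57 ± 0.82, adjusted p = 0.00366). Neither gene's groups overlapped, and DAZL replicate 3 was the highest of its group, without which its log2 fold change was -4.48 (adjusted p = 0.000796, range over alternatives 2.54e-05 to 0.00916), while DESeq2 gave -3.19. PIWIL1 was at 1034, 1061 and 1292, below every SCNT4c library (2634 to 3475), with a log2 fold change of -1.40 ± 0.55 that missed the threshold (adjusted p = 0.0610). PIWIL1 was called without SCNT8c replicate 2 (adjusted p = 0.00983) or replicate 3 (0.00129) and in a fit of both groups alone (0.000280), and its adjusted p ran up to 0.147 over all alternatives. The SCNT8c libraries entered this comparison only through the filter on low signal and the shared estimate of spread. PIWIL2 was at 28.4, 28.4 and 34.4, just under the lowest SCNT4c value of 37.9 (-1.72 ± 1.29, adjusted p = 0.318), and was called in the fit of both groups alone (adjusted p = 0.0338, range over alternatives 0.0338 to 0.556).

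TDRD1 was at 1266, 1223 and 1799, overlapping SCNT4c (log2 fold change 0.26 ± 0.52, adjusted p = 0.734). SYCP3 was at 3960, 817.0 and 5875, with replicates 1 and 3 above and replicate 2 below every SCNT4c library (1.22 ± 0.54, adjusted p = 0.0911). Without replicate 2 SYCP3 was called higher (2.07, adjusted p = 0.00111), as it was under quantile normalization (1.45, adjusted p = 0.0487), equal library totals (1.5, adjusted p = 0.0444), edgeR (1.87, adjusted p = 0.01) and DESeq2 (1.89, adjusted p = 0.00126), and over all alternatives its adjusted p reached 0.384. ASZ1 was at 40.1, 42.2 and 154.6, overlapping SCNT4c (-0.56 ± 0.54, adjusted p = 0.447). DDX4 was at 7.53, 3.84 and 8.42 and overlapped SCNT4c, and MOV10L1 was at 3.35, 13.8 and 3.06 against a highest SCNT4c value of 2.37, and neither was tested. The assembled transcript at the MOV10L1 locus was at 34.3, 21.5 and 41.3 in SCNT4c-TDG, above its 9.46 or less in SCNT4c, and the sum of both entries gave a log2 fold change of 3.8 (adjusted p = 0.00928), again with SCNT4c under the minimum mean of 10, and is likewise a description.

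Of the 7 tested genes, 2 were called lower and 0 higher (limma), beside 17.6% and 15.7% of all features, and 33.3% in either direction. At an unadjusted p under 0.05 there were 4 of the 7, and edgeR and DESeq2 each called 3 in either direction. Ranges lay apart and lower for 4 of the 7, beside 33.2% of all features, and apart and higher for 0, beside 25.2% (58.4% in either direction). The median log2 fold change was -1.40 over the 7 genes and -0.26 over all features.

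**Figure D3:**
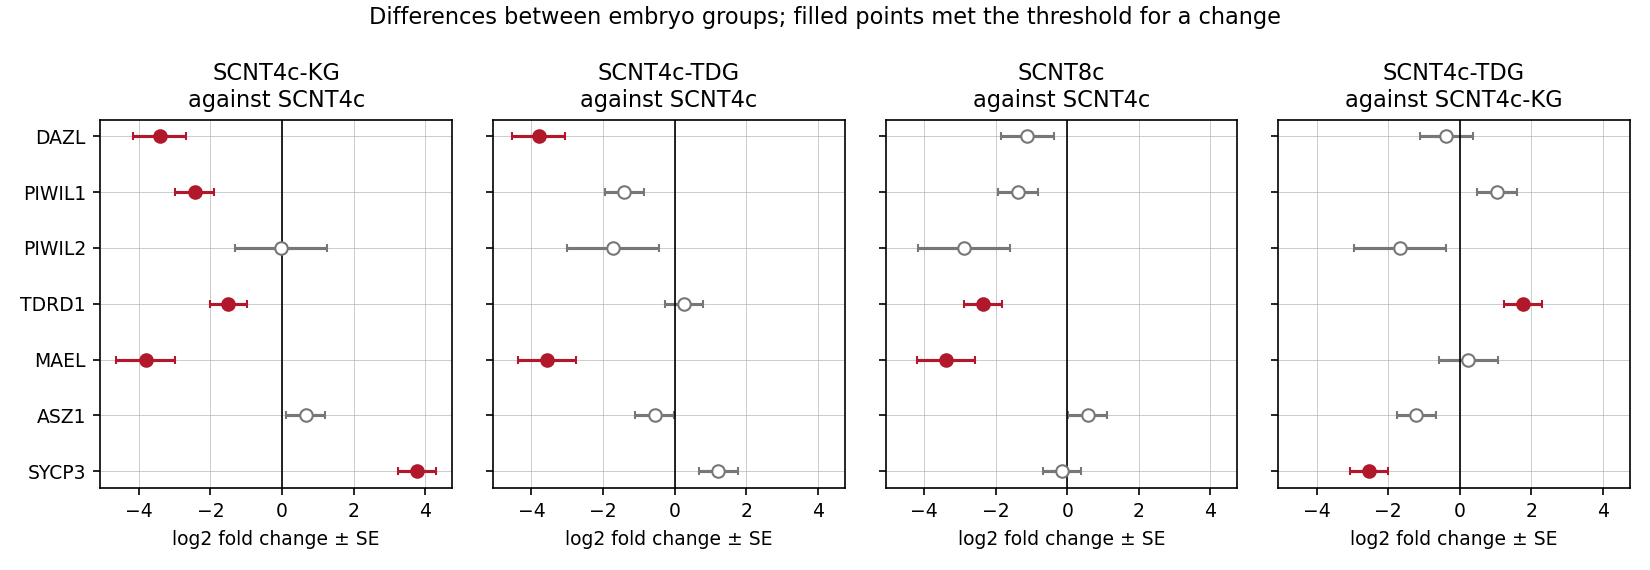
Log2 fold changes (horizontal axis, bars are SE) of the 7 tested genes are shown for 4 comparisons between embryo groups, with filled points for genes past both thresholds (adjusted p 0.05, fold change 2). MAEL, DAZL, PIWIL1 and TDRD1 lie to the left and SYCP3 to the right of 0 in SCNT4c-KG, while SCNT4c-TDG has filled points for DAZL and MAEL.

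SCNT4c-TDG set directly against SCNT4c-KG differed in TDRD1 and SYCP3, and SCNT4c entered this comparison only through the filter and the shared estimate of spread. TDRD1 was 3.39-fold higher in SCNT4c-TDG and SYCP3 was 5.82-fold lower. TDRD1 had 1223 to 1799 in SCNT4c-TDG and 400.2 to 423.2 in SCNT4c-KG (log2 fold change 1.76 ± 0.52 SE, adjusted p = 0.0320), with no overlap. Its call was lost without any one of these 6 libraries, with adjusted p of 0.0870, 0.0806 and 0.0731 without SCNT4c-KG replicate 1, 2 or 3 and 0.0776, 0.0755 and 0.123 without SCNT4c-TDG replicate 1, 2 or 3, within a range of 0.000195 to 0.123 over all alternatives. SYCP3 had 817.0 to 5875 in SCNT4c-TDG, all below the 13254 to 17982 of SCNT4c-KG (-2.54 ± 0.54, adjusted p = 0.00481), and without SCNT4c-TDG replicate 2 its log2 fold change was -1.69 (adjusted p = 0.0116, range over alternatives 0.000559 to 0.0254). DAZL (-0.38 ± 0.74, adjusted p = 0.776) and MAEL (0.24 ± 0.82, adjusted p = 0.880) were low in both treated groups, with overlapping values. Both differences were smaller than their SE, which does not show that the levels were equal.

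PIWIL1 was higher in every SCNT4c-TDG library (1034 to 1292) than in every SCNT4c-KG library (512.7 to 571.7), with a log2 fold change of 1.04 ± 0.55 (adjusted p = 0.221). It was called without SCNT8c replicate 3 (adjusted p = 0.0165) and in the fit of both groups alone (0.00389), and its adjusted p reached 0.407 over all alternatives. PIWIL2 was lower in every SCNT4c-TDG library (28.4 to 34.4 against 92.6 to 111.1), at -1.68 ± 1.29 (adjusted p = 0.411), and was called in the fit of both groups alone (0.0138, range 0.0138 to 0.596). ASZ1 overlapped (-1.22 ± 0.54, adjusted p = 0.141) and was called only without SCNT4c-TDG replicate 3 (-1.85, adjusted p = 0.0405, range 0.0405 to 0.414). Of the 7 tested genes 1 was called higher and 1 lower, beside 7.07% and 9.13% of all features and 16.2% in either direction, and the median log2 fold change was -0.38 against -0.02 over all features. Ranges lay apart for 2 higher and 2 lower genes, beside 19.8% and 24.6% of all features (44.4% in either direction).

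From the 4-cell to the 8-cell stage TDRD1 and MAEL were called lower in untreated SCNT embryos, but the number called changed when single libraries were left out. Of the other genes, DAZL, PIWIL1 and PIWIL2 passed only without replicate 3 of SCNT8c. This replicate was the highest of its group for each of the 5 genes named next. MAEL was at 199.8, 122.2 and 3253 in SCNT8c replicates 1 to 3, each below the lowest SCNT4c library of 3362 (log2 fold change -3.39 ± 0.82 SE, adjusted p = 0.0322). TDRD1 was at 213.8, 86.5 and 640.3, each below the SCNT4c minimum of 961.5 (-2.36 ± 0.52, adjusted p = 0.0257). DAZL was at 1482, 398.2 and 5895, and PIWIL1 at 988.6, 401.5 and 3770, so that for both genes replicate 3 lay above every SCNT4c library and replicates 1 and 2 below every one. Their log2 fold changes were -1.12 ± 0.74 (adjusted p = 0.323) and -1.38 ± 0.55 (adjusted p = 0.119). PIWIL2 followed the same order at 14.9, 0 and 173.3 (-2.88 ± 1.29, adjusted p = 0.155).

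SYCP3 (1521, 778.9 and 931.9) and ASZ1 (127.0, 147.1 and 151.1) did not share this spread, and their log2 fold changes were -0.15 ± 0.54 (adjusted p = 0.883) and 0.57 ± 0.54 (adjusted p = 0.505). ASZ1 had the narrowest spread of the 9 genes in SCNT8c, with a coefficient of variation of 9.13% against 149.8% for MAEL. DDX4 was at 4.67, 0 and 0, under every SCNT4c library, and MOV10L1 was at 10.3, 0 and 2.11, and neither was tested. Without SCNT8c replicate 3, 5 of the 7 tested genes were called lower: PIWIL2 at -4.69 (adjusted p = 0.00231), MAEL at -4.85 (3.70e-06), TDRD1 at -3.10 (6.01e-05), PIWIL1 at -2.24 (0.000205) and DAZL at -2.10 (0.0124). Without SCNT8c replicate 2 the log2 fold changes of MAEL and TDRD1 were -2.49 and -1.67, and by edgeR they were -1.84 and -1.80. Without replicate 1 or 2 of SCNT8c, or without SCNT4c library a, b or c, 0 were called, and without SCNT4c-TDG replicate 1 or 2 only TDRD1 was. Of the 7 genes, 2 were called lower and 0 higher (limma) beside 3.16% and 2.62% of all features, 4 had an unadjusted p under 0.05, edgeR called 0 and DESeq2 called 1. Ranges lay apart for 2 lower genes and 0 higher, beside 14.3% and 9.24% of all features (23.5% in either direction), and the median log2 fold change was -1.38 against -0.31 over all features. Without replicate 3 the share of all features called rose from 5.79% to 32.3%, of which the lower calls were 19.9% of all features. The median log2 fold change was then -2.23 over the 7 genes and -0.24 over all features.

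The summed signal of transcripts known from the oocyte was also lower in the groups in which MAEL was low. The oocyte list held 15 names, of which H1-8 and H1FOO are 1 gene, and 13 genes were in the table. Their summed signal was 277823 to 327114 in SCNT4c, 110746 to 200120.1 in SCNT4c-KG, 34935 to 39793 in SCNT4c-TDG, and 98207, 64199.6 and 229223 in SCNT8c replicates 1 to 3. KPNA7, H1FOO and ZP4 made up most of it in SCNT4c, at means of 115607.5, 106897 and 74784. Of 8 tested oocyte genes, 2 were called lower and 1 higher in SCNT4c-KG, 4 lower and 0 higher in SCNT4c-TDG, and 2 lower and 0 higher in SCNT8c, where 5 were lower without replicate 3, beside 19.6%, 17.6% and 3.16% of all features lower (19.9% without replicate 3). SCNT8c replicate 3 thus had the highest oocyte sum of its group and also the highest DAZL, PIWIL1, PIWIL2, TDRD1 and MAEL. KPNA7 (93494.5) and H1FOO (98583) were also highest in this replicate. ZP4 had the opposite order, at 45081, 36542 and 34726 in SCNT8c replicates 1 to 3. Among single genes KPNA7, an oocyte importin, went from 102177 to 128182 in SCNT4c to 26094 to 38048 in SCNT4c-KG and 11438 to 12517 in SCNT4c-TDG. Other genes of the list differed from this in SCNT4c-KG, where OOEP was at 1018 to 2040.3 against 590.3 to 852.9 in SCNT4c, ZP3 was at 425.1 to 872.3 against 9.96 to 51.6, and H1FOO overlapped at 43449 to 111397 against 92764 to 135058. In SCNT4c-TDG ZP3 was at 73.6 to 75.9, above SCNT4c, and OOEP overlapped SCNT4c at 573.7 to 1223. H1FOO, ZP2, ZP4 and NLRP5 were below every SCNT4c library there. SYCP3 was called higher in SCNT4c-KG, where this sum was lower, and TDRD1 was at 1223 to 1799 in SCNT4c-TDG, where the sum was lowest among the embryos. The part of stored oocyte RNA in these results was not tested.

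Fibroblast markers, 12 of 12 in the table with PDGFRA listed at 0 in all libraries, summed to 3391326 to 3691937 in PFF, 3726 to 4878 in SCNT4c, 2524 to 3775 in SCNT4c-KG, 1592 to 2012 in SCNT4c-TDG and 1909 to 2236 in SCNT8c. Cumulus and granulosa markers, 11 of 12 in the table, summed to 673.4 to 715.9, 1752 to 2256, 1148 to 1405, 668.7 to 859.7 and 1671 to 2332 in the same order, and the defining genes found in the table, CYP11A1 and FSHR, summed to 0 to 33.8 in every embryo library. Both sums were lower in SCNT4c-TDG than in SCNT4c. The cumulus and granulosa sum was also lower in every SCNT4c-KG library, and the fibroblast sum in every SCNT8c library. The part of both sums in the results was not tested.

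**Figure D4:**
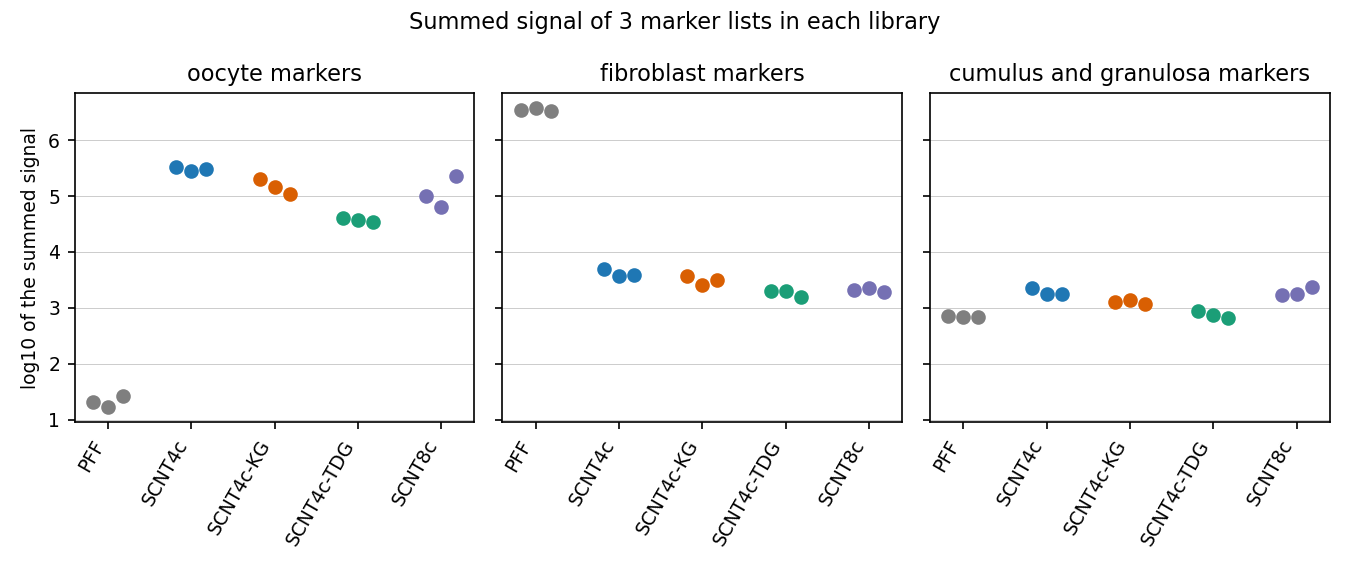
The log10 of the summed signal of 3 marker lists (vertical axis) is plotted for each library, grouped along the horizontal axis. The oocyte sum is highest in SCNT4c (277823 to 327114), lowest among embryos in SCNT4c-TDG (34935 to 39793), and spread in SCNT8c by replicate 3.

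Other piRNA pathway genes were called in both directions in the treated embryos, at 11 of 16 tested in SCNT4c-KG and 6 of 16 in SCNT4c-TDG, the latter near the background of 33.3%. In SCNT4c-KG, 4 of 16 tested were called higher and 7 lower (median log2 fold change -1.12, beside -0.30 over all features), against 37.2% of all features called. STK31, a Tudor-domain kinase-like protein, was at 360.5 ± 95.5 in SCNT4c-KG and 6.54 ± 5.36 in SCNT4c, under the minimum mean of 10, so it passed the filter through other groups and its call is a description (log2 fold change 5.85 ± 0.89 SE, adjusted p = 0.000155). PNLDC1, the trimmer of piRNA 3′ ends, was at 59.6 ± 22.5 against 7.23 ± 1.5 and passed the filter only through SCNT4c-KG, so its call is a description, while BTBD18 (-2.92 ± 0.56, adjusted p = 0.000940), an activator of pachytene piRNA loci, and EXD1 (-2.57 ± 0.78, adjusted p = 0.0171), a piRNA biogenesis factor, fell. HENMT1, chosen after its values were seen, rose from 12837 ± 2036 to 75900 ± 8647 (SD, n = 3). In SCNT4c-TDG 3 of 16 were called higher and 3 lower (median -0.14, beside -0.26). MYBL1, a transcription factor of piRNA genes, rose there (2.27 ± 0.32, adjusted p = 8.95e-05), and STK31, with the same limit, was at 100.3 ± 43.9. BTBD18 fell (-4.08 ± 0.56, adjusted p = 6.86e-05), and FKBP6 fell from 28353 ± 2370.0 to 2083 ± 199.1 (-3.77 ± 0.43, adjusted p = 1.31e-05).

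Directly compared, SCNT4c-TDG and SCNT4c-KG differed in 4 of these 16 genes, beside 16.2% of all features. TDRD6, a Tudor protein of germ granules, was higher in SCNT4c-TDG at 584.4 ± 58.6 against 108.1 ± 40.3 (log2 fold change 2.5 ± 0.69, adjusted p = 0.0221), as was MYBL1 (1.77 ± 0.32, adjusted p = 0.00188). FKBP6 was lower (-2.19 ± 0.43, adjusted p = 0.00298), and PNLDC1 was at 0.510 ± 0.883 in SCNT4c-TDG. At the 8-cell stage PIWIL3 alone of the 16 was called, lower at 590.1 ± 611.7 against 1961 ± 83.0 (-2.27 ± 0.53, adjusted p = 0.0303), with 10 at an unadjusted p under 0.05, 1 called by edgeR and 2 by DESeq2. Without SCNT8c replicate 3, 8 were called lower and 1 higher, where 19.9% of all features were lower and 12.4% higher.

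Of 22 tested meiosis genes other than SYCP3, 5 were called higher and 2 lower in SCNT4c-KG (median log2 fold change 0.23, beside -0.30 over all features) and 5 higher and 3 lower in SCNT4c-TDG (median 0.78, beside -0.26). These shares were close to the 37.2% and 33.3% of all features called, so the counts are no result about meiosis genes as a group. PSMC3IP, a cofactor of meiotic strand exchange, rose in both, to 585.6 ± 113.8 in SCNT4c-KG and 452.4 ± 94.1 in SCNT4c-TDG from 16.6 ± 4.45 in SCNT4c (log2 fold changes 5.07 ± 0.56 and 4.70 ± 0.56, adjusted p = 7.92e-06 and 1.91e-05). SYCE1 and TEX12, proteins of the same synaptonemal complex as SYCP3, rose in SCNT4c-KG (2.88 ± 0.82, adjusted p = 0.0129, and 2.75 ± 1.04, adjusted p = 0.0486) and in SCNT4c-TDG (2.78 ± 0.82, adjusted p = 0.0172, and 2.88 ± 1.04, adjusted p = 0.0435). SYCP2L, a relative of SYCP2, fell in SCNT4c-KG (-1.47 ± 0.54, adjusted p = 0.0435), and SYCP2, the partner of SYCP3 in the chromosome axis, was at 12.8 ± 12.3 there against 33.9 ± 17.5 (adjusted p = 0.111). SYCE1 and TEX12 were under the minimum mean of 10 in SCNT4c and passed the filter through other groups, so their calls are descriptions. Their levels remained low, at 58.3 ± 26.1 and 38.9 ± 1.56 in SCNT4c-KG, beside 15664 ± 2365 for SYCP3. These signals are not scaled to gene length. RNF212, a crossover factor, was at 58.3 ± 20.7 in SCNT4c-KG against 1.07 ± 1.20 and passed the filter only through SCNT4c-KG, so its call is a description. SPDYA, a telomere-bound kinase activator of meiosis, fell in SCNT4c-TDG (-3.74 ± 1.02, adjusted p = 0.0111). SYCP2 was higher in SCNT4c-TDG than in SCNT4c-KG at 115.3 ± 24.1 against 12.8 ± 12.3 (3.98 ± 1.03, adjusted p = 0.0157), the opposite direction to SYCP3 in that comparison. In that comparison 3 of the 22 genes were called higher and 1 lower, near the 16.2% of all features called. In SCNT8c SYCP2L alone of the 22 was called, lower at 254.7 ± 204.9 against 785.0 ± 183.2 (-1.96 ± 0.54, adjusted p = 0.0465), beside 3.16% of all features lower, and without replicate 3 there were 4 lower, near the 19.9% of all features.

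Among 14 tested germ cell identity genes other than DAZL and DDX4, 3 were called higher and 2 lower in SCNT4c-KG, and 3 higher and 3 lower in SCNT4c-TDG (medians -1 and -0.45, beside -0.30 and -0.26 over all features), again near the 37.2% and 33.3% of all features called. TFAP2C, a transcription factor of primordial germ cells that is also used in trophectoderm, rose from 755.8 ± 314.9 to 14770.2 ± 3390 in SCNT4c-KG (4.34 ± 0.31, adjusted p = 9.40e-08) and to 36087 ± 5686 in SCNT4c-TDG (5.64 ± 0.31, adjusted p = 2.96e-08). DPPA3, a maternal factor that shields DNA methylation patterns in the zygote, rose from 4897 ± 1167 to 23345 ± 1902 and 34780.4 ± 3396 (adjusted p = 0.000672 and 0.000115). SLC25A31, a germ cell ADP/ATP carrier, fell in both (-2.61 ± 0.61, adjusted p = 0.00401, and -2.49 ± 0.61, adjusted p = 0.00584). SCNT4c-TDG against SCNT4c-KG had 3 higher and 0 lower, namely NANOS1, KIT and TFAP2C, beside 7.07% of all features higher and 9.13% lower, with 4 of the 14 at an unadjusted p under 0.05 and 3 called by edgeR and by DESeq2. In SCNT8c limma called 0 of the 14, with 9 at an unadjusted p under 0.05, 1 called by edgeR and 3 by DESeq2, and without replicate 3 it called 2 higher and 6 lower, beside 12.4% and 19.9% of all features.

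Of 11 tested repressors of germline genes, 5 were called higher and 3 lower in SCNT4c-KG, and 4 higher and 3 lower in SCNT4c-TDG (medians 0.87 and 0.08, beside -0.30 and -0.26 over all features), where 37.2% and 33.3% of all features were called. DNMT1, the maintenance DNA methyltransferase, was at 310.4, 366.7 and 192.4 in SCNT4c-KG and at 11.8, 4.37 and 1.66 in SCNT4c (log2 fold change 5.63 ± 0.75 SE, adjusted p = 4.95e-05). It was at 21.7, 21.5 and 22.9 in SCNT4c-TDG, lower than in SCNT4c-KG (-3.61 ± 0.75, adjusted p = 0.00436). The SCNT4c-KG libraries were above those of the other embryo groups in DNMT1, on few reads, 614 summed over SCNT4c-KG and 22 over SCNT4c. The SCNT4c mean was under the minimum of 10, and DNMT1 passed the filter largely through SCNT4c-KG, so its calls are descriptions. DNMT3B, a de novo methyltransferase, fell from 666.3 ± 129.4 to 89.4 ± 29.2 in SCNT4c-KG (-2.92 ± 0.69, adjusted p = 0.00408), and RNF2 fell from 8483 ± 3053 to 1194 ± 51.1 (-2.77 ± 0.33, adjusted p = 1.69e-05). In SCNT4c-TDG, UHRF1, which recruits DNMT1, fell (-2.73 ± 0.96, adjusted p = 0.0392), while TFDP1, a dimerization partner of E2F proteins, rose (2.97 ± 0.68, adjusted p = 0.00353). MAX fell in both treated groups (-1.94 ± 0.31, adjusted p = 0.000216, in SCNT4c-KG and -2.17 ± 0.31, adjusted p = 8.75e-05, in SCNT4c-TDG). ATF7IP, a partner of SETDB1, was called higher in both (4.48 ± 1.09, adjusted p = 0.00515, and 5.70 ± 1.09, adjusted p = 0.00107), having passed the filter through groups other than SCNT4c, where its mean was 3.88. SCNT4c-TDG against SCNT4c-KG had 2 higher and 3 lower, beside 16.2% of all features called. In SCNT8c limma called 0 of the 11, with 7 at an unadjusted p under 0.05, 0 called by edgeR and 3 by DESeq2, and without replicate 3 it called 3 higher and 3 lower, beside 12.4% and 19.9% of all features.

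**Figure D5:**
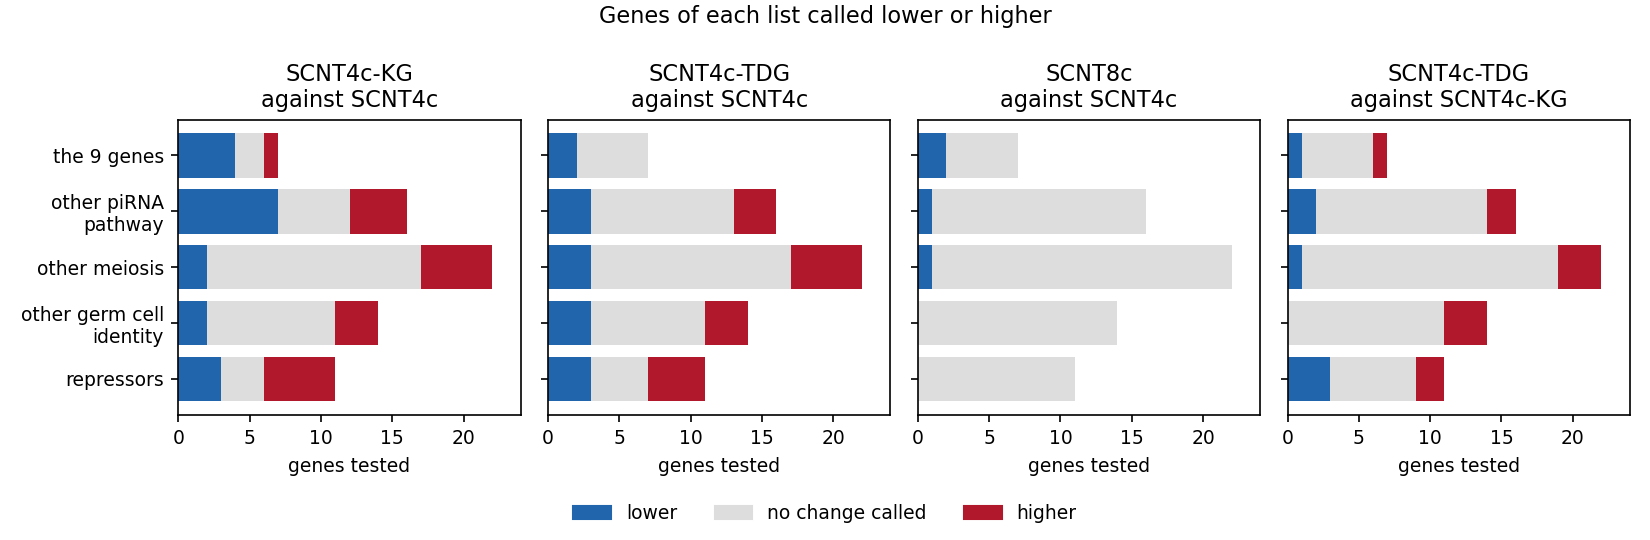
Bars count the tested genes of each list (horizontal axis) that were called lower (blue), higher (red) or neither (grey) in 4 comparisons between embryo groups. SCNT4c-KG has 4 lower and 1 higher of the 7 tested genes of the set and 7 lower and 4 higher of 16 other piRNA pathway genes, and SCNT8c has few calls in any list.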

How the data were processed

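RNA of PFF cultures and of pools of 30 SCNT embryos was amplified as cDNA and sequenced as paired 150-base reads. Per the labels and the study's methods, the authors called bases with CASAVA 1.8.2, used Trimmomatic 0.39 for trimming and STAR 2.5.3a for unique alignment to Sscrofa11.1, assembled transcripts with StringTie 2.1.2 and counted genes with HTSeq. The deposited values are normalized signal, read counts divided by a size factor per library as DESeq2 gives them. Unique alignment lowers genes with near-identical copies, and cDNA amplification before sequencing adds spread at low input. The table had 43535 rows, of which 241 repeated a feature with the same values and were removed, leaving 28224 known genes and 15070 assembled transcripts. Each library's values were whole multiples of 1 step (100% within 0.01 read), so read counts were recovered from the deposited signal.

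The main test was limma 3.58.1 (R 4.3.3) on log2(signal + 1) with an intensity trend, and a feature entered it when its mean signal across the fitted libraries reached 10. The pseudocount of 1 understates fold changes of low genes. Calls needed a Benjamini-Hochberg adjusted p under 0.05 over all features tested and a fold change above 2. The 12 embryo libraries shared 1 fit, and SCNT4c with PFF had a fit of their own. edgeR 4.0.16 and DESeq2 1.42.0 on the recovered reads were alternatives, as were other pseudocounts, filters and scalings, fits of both groups alone, sums over a locus, and leaving out each library. Alternatives without SCNT8c replicate 3 for the other gene lists were added after seeing the data. No 2 libraries agreed within sampling noise. Per-kilobase levels divide the signal by the RefSeq exon length. Ratios with few PFF reads have exact 95% intervals that cover counting error only, as does the floor of 3 counts.

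All members are named. Of every other list at most the 4 called genes with the largest absolute log2 fold change in a comparison were to be named. SYCP2, SYCP2L, MAX, RNF2 and HENMT1 were also named outside this rule in some comparisons. The members and lists were chosen with earlier results of these data known. CpG content and motifs were counted in the 250 bases before the RefSeq gene start of 8 members (Sscrofa11.1), and the window of the other member is not reported here.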

Additional observations from a re-analysis of the deposited data

How the results depend on the processing

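Of 727 values of single genes of the set under an alternative, 667 kept direction and call, 31 lost the call, 18 gained it and 11 changed sign, and for those that changed the cause was not tested. The number of genes called in SCNT4c against PFF and in SCNT4c-KG against SCNT4c stayed within 1.5 times under every alternative run. In SCNT4c-TDG against SCNT4c a fit of both groups alone called 4 in place of 2, while all features called rose from 33.3% to 47.6%. In SCNT8c against SCNT4c edgeR called 0, DESeq2 1 and the fit of both groups alone 0, and leaving out 1 library gave 0 to 5. In SCNT4c-TDG against SCNT4c-KG testing all features above 0 called 1, the fit of both groups alone 4, the replicate block 4, and leaving out 1 library gave 1 to 3. The block used only replicate numbers, since same-numbered libraries did not all deviate together (correlations -0.00117, -0.00205 and 0.0246 between these groups); it called PIWIL1 and PIWIL2, which the fit of both groups alone called as well, and all features called rose from 3070.0 to 4805 (4989 without the block). No block was fitted with SCNT4c, whose column numbers could not be tied to single samples. Signs changed for PIWIL2 in SCNT4c-KG (0.066 under quantile normalization, 0.032 summed over the locus, -0.74 to 0.40 leaving out 1 library), SYCP3 in SCNT8c (0.054 by edgeR, 0.13 by DESeq2, -0.43 to 0.056 leaving out 1 library) and DAZL in SCNT4c-TDG against SCNT4c-KG (0.12 by edgeR, 0.091 by DESeq2, -1.06 to 0.081 leaving out 1 library), none of them called. Over all features, calls moved beyond 1.5 times for SCNT4c against PFF (15083, 10020.0 with a minimum mean of 50), for SCNT4c-TDG against SCNT4c-KG (1878, 1809 and 1794 without SCNT4c-TDG replicate 1, 2 or 3 and 2019 without SCNT4c-KG replicate 2) and for SCNT8c against SCNT4c (1096, 2733 by DESeq2, 601 with all features above 0, 1662 with a pseudocount of 10, 0 in both groups alone, 31 to 6133 leaving out 1 library). The share of calls that were higher moved by over 10 points in SCNT4c-TDG against SCNT4c-KG (43.6% to 64.3% with equal library totals) and SCNT8c against SCNT4c (45.3% to 57.0% with quantile normalization, 71.8% by DESeq2, 79.5% by edgeR, 17.1% and 25.5% without SCNT8c replicate 1 or 2, and 64.4% and 66.2% without SCNT4c library a or c). Equal library totals shifted the median of all features by 0.79 on the log2 scale in SCNT4c against PFF, 0.28 in SCNT4c-TDG against SCNT4c and 0.36 in SCNT4c-TDG against SCNT4c-KG, and quantile normalization by 0.11, 0.18 and 0.33 in SCNT4c-KG, SCNT4c-TDG and SCNT8c against SCNT4c. Larger shifts in SCNT4c against PFF came from DESeq2 (0.94), edgeR (0.896) and a minimum mean of 50 (-0.855). They also included 0.373 by DESeq2 in SCNT8c against SCNT4c. In SCNT4c-KG against SCNT4c, testing all features above 0 gave 0.224. Few reads limit DDX4 and MOV10L1, and 3 libraries per group with the spread of SCNT8c limit what the 8-cell comparison can show.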
